A study of Mus musculus with 2 samples.

Results

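The 50 genes described here encode the enzymes that bring pyruvate, ketone bodies and branched-chain amino acids into the mitochondrial tricarboxylic acid (TCA) cycle, and the enzymes of the cycle itself. They were chosen by name from a metabolic gene list, and all 50 were found among the 30385 entries of the deposited table, 1 entry each. Heart RNA was measured by 5′RNA-seq, in which intact polyadenylated RNA is sequenced without fragmentation so that reads gather near transcript starts. The 2 libraries were of wild-type (WT) hearts and of hearts of genotype MHC403/+ (MHC403 below), mice that carry 1 altered copy of a cardiac myosin heavy chain gene as a model of hypertrophic cardiomyopathy. All mice were of strain 129/SvEv and aged 8 to 16 weeks. All had been injected under the skin with CsA (cyclosporine A, a calcineurin inhibitor) at 15 mg/kg, 2 times a day for 2 weeks, so an effect of the drug was not measured. Each library pooled an unstated number of animals, so no difference below has a replicate check and no test between genotypes could be made. Counts in the table are not split by allele and so cannot check the genotype label.

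The adult heart makes most of its ATP in mitochondria. The pyruvate dehydrogenase complex turns pyruvate from glucose and lactate into acetyl-CoA, and is switched off by phosphorylation through dedicated kinases and on again by phosphatases. Ketone bodies and the branched-chain amino acids leucine, isoleucine and valine are broken down in the same compartment, the latter through a related dehydrogenase complex with its own kinase and phosphatase. Acetyl-CoA and succinyl-CoA from these routes are then oxidised by the TCA cycle.

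Sequencing gave 5468677 MHC403 reads and 5481123 WT reads. An entry is called measured if the higher of its 2 read counts is 50 or more. Of the 30385 entries 9507 were measured, and of the 50 genes 47. Ratios are MHC403 over WT after scaling each library to its total, and ranges in parentheses are exact (Clopper-Pearson) 95% intervals of the ratio, which cover counting error only. The median measured entry was 1.48-fold higher in MHC403 (log2 ratio 0.57), and mitochondrially encoded entries took 15.4% of MHC403 reads against 32.9% of WT reads. Some values are therefore also given relative to that median, or after median-of-ratios scaling, a shift of every log2 ratio by -0.55. Gene positions are on the mm9 build.

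Pdp2 and Pdk4, which act in opposite directions on pyruvate dehydrogenase, differed in opposite directions between the libraries. Their promoters are shown because reads of this assay gather near transcript starts, though no reads per start are given. The promoters of Suclg2 and Sucla2, which encode alternative subunits of 1 enzyme, and of Aldh6a1, the gene with the highest start-site score of the 50, are shown for the same reason. Each sequence is the 250 bases before the RefSeq start (for Aldh6a1, the upstream one of its 2), 5′ to 3′ on the gene's strand, from the GRCm38.p6 build. Capitals mark matches on either strand to the CCAAT box, to the GC box (GGGCGG), to the E-box (CACGTG) or to a site of the factor NRF1 (GCGC and TGCGC with any 1 base between).
Pdp2, chr8:104591222-104591471, plus strand: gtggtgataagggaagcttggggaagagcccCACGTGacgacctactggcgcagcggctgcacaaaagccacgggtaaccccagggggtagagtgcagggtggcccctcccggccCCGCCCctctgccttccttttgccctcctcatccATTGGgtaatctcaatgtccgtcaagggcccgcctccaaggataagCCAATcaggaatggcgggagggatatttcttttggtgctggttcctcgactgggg
Pdk4, chr6:5496279-5496528, minus strand: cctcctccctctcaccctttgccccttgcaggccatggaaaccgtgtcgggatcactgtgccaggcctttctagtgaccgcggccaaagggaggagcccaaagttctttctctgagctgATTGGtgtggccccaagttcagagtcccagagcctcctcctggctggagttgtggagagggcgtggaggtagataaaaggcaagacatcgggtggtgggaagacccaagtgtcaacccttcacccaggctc
Suclg2, chr6:95718847-95719096, minus strand: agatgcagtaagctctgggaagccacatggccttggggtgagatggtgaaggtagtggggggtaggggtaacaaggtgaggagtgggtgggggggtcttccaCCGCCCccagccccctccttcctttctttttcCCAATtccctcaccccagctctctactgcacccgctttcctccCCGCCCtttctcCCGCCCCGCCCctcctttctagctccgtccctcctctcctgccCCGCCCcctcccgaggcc
Sucla2, chr14:73552536-73552785, plus strand: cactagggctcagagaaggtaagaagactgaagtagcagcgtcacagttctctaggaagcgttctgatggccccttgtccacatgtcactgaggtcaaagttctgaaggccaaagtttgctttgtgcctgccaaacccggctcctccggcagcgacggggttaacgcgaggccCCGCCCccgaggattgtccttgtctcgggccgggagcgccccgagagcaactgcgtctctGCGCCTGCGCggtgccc
Aldh6a1, chr12:84451025-84451274, minus strand: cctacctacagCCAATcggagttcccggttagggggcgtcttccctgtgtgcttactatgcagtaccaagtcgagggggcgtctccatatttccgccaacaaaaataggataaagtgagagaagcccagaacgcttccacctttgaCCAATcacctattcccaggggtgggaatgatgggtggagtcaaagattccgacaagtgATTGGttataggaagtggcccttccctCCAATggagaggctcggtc
The Pdp2 promoter holds an E-box, a pair of CCAAT matches and a GC box, whereas Pdk4 holds a single CCAAT match. Suclg2 has 5 GC boxes, of which a pair overlap by 1 base, and a CCAAT match, and Sucla2 has 1 GC box and an NRF1 match. Aldh6a1 has 4 CCAAT matches. Bases just after the start were found in a GENCODE M21 transcript of the gene for Pdp2, Pdk4 and Sucla2. They were not found for Suclg2 or for the Aldh6a1 start shown, so those starts are less certain. Of 59 promoters of the members, 48 had such bases in a transcript.

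Across the genes with a promoter in the RefSeq table, 44 of the 50, a CCAAT match was found in 25 (56.8%, against 37.5% of all 27025 genes in the table). A GC box was found in 24 (54.5% against 35.4%), an E-box in 5 (11.4% against 6.86%) and an NRF1 match in 3 (6.82% against 4.23%). The E-box genes were Pdp2, Pdk2, Ogdh, Mccc2 and Pcx, and the NRF1 genes were Sucla2, Hibadh and Pccb. The ETS core CCGGAAG, bound by GABP among others, was found in 2 (4.55% against 7.83%) and TATAAA in 3 (6.82% against 14.3%). No promoter of the 44 held TNAAGGTCA, the element of estrogen-related receptors (1.30% of all genes), or AGGTCA repeated in tandem with any 1 base between, a PPAR element (0.0407%). The median GC content of these 250 bases was 58.9% over the 44 genes and 52.4% over all genes. Matches are letter strings in this window and do not show binding.

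Most of the 47 measured genes were lower in the MHC403 library by a modest factor, while the median measured entry was higher. Their median log2 ratio was -0.41 (1.33-fold lower), with a binomial order-statistic interval over genes of -0.57 to -0.25, against 0.57 over all measured entries. At a 2-fold threshold 5 of the 47 were lower, where 2.43% of all measured entries were, and 1 was higher, where 26.1% were. At 1.5-fold 15 were lower (background 5.62%) and 4 were higher (background 49.1%). Counting intervals were wholly under a ratio of 1 in 34 (background 10.3%), wholly above it in 6 (background 63.2%) and spanned it in 7. Relative to the median of all measured entries, 43 of the 47 were lower. The 5 genes past 2-fold on the lower side were Pdp2, Dbt, Aldh6a1, Suclg2 and Acat1, and the 1 on the higher side was Aco1. The median-of-ratios scaling put 22 of the 47 past 2-fold on the lower side (background 7.59%) and none on the higher side (background 10.9%). TMM scaling gave the same counts (backgrounds 7.55% and 10.9%), and totals without mitochondrially encoded entries gave 12 and none (backgrounds 4.51% and 15.2%). Among entries with at least 200 reads, 4 of 38 genes were 2-fold lower (background 2.5%) and none higher (background 24.7%). Summed over all 50, the genes took 0.927% of MHC403 reads (0.919 to 0.935) and 1.24% of WT reads (1.23 to 1.25).

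**Figure D1:**
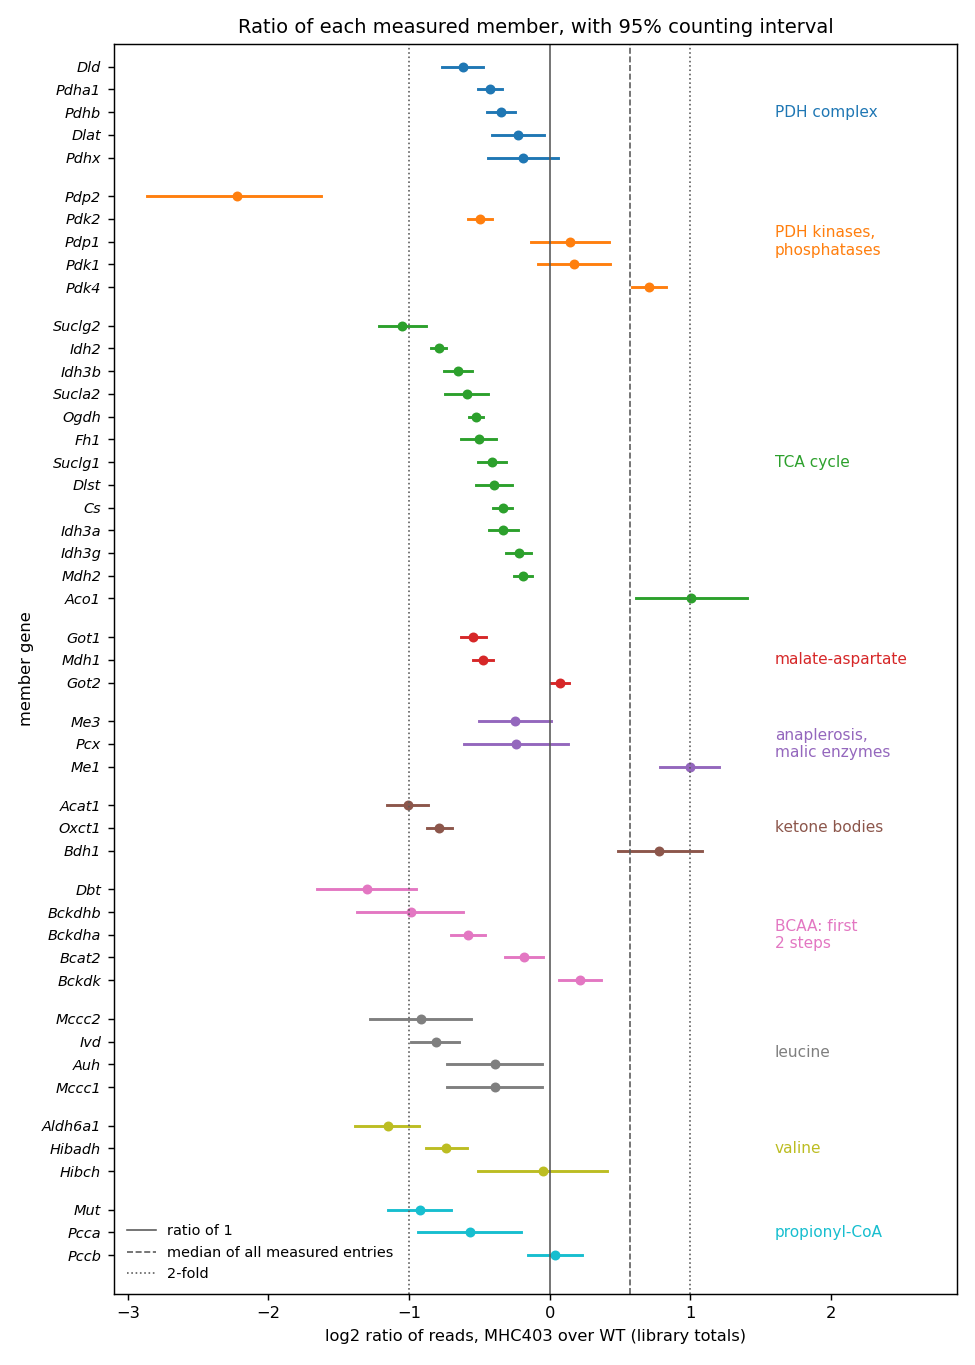
Log2 ratio of reads (MHC403 over WT, scaled to library totals, horizontal axis) for each of the 47 measured genes, grouped by role on the vertical axis. Points are ratios and bars are 95% counting intervals, with lines at a ratio of 1, at 2-fold and at the median of all measured entries (0.57). Apart from Pdk4, Aco1, Me1 and Bdh1, every point lies left of that median.

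Several genes lay close to the 2-fold threshold, so single calls there depend on small differences. Aco1 (2.00-fold higher), Acat1 (2.01-fold lower) and Suclg2 (2.07-fold lower) were just past it. Me1 (1.99-fold higher) and Bckdhb (1.98-fold lower) were just short of it.

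All 5 genes of the pyruvate dehydrogenase complex were lower by point estimate and none reached 2-fold. Pdha1, the alpha subunit of the decarboxylase (chromosome X, 156560151 to 156576268), had 1955 reads in MHC403 and 2630 in WT, 1.34-fold (1.27 to 1.42) lower. Its partner Pdhb had 1435 and 1827 reads, 1.27-fold (1.18 to 1.36) lower. The number of Pdha1 reads per Pdhb read differed between the libraries by a factor of 0.946 (0.864 to 1.04), an interval that spans 1. Dlat, the acetyltransferase core, had 451 and 529 reads and was 1.17-fold (1.03 to 1.33) lower. Pdhx, which docks the dehydrogenase to the core, had 252 and 288 reads, and its interval spanned a ratio of 1 (1.14-fold lower, 0.960 to 1.36). Dld, the lipoamide dehydrogenase that the complex shares with the 2-oxoglutarate and branched-chain complexes, had the lowest ratio of the 5. It had 638 reads in MHC403 and 981 in WT, 1.53-fold (1.39 to 1.70) lower. Pdhb shares 38.5% of its 36-base words with a gene copy elsewhere in the genome, or 14% in the first 200 bases of its transcripts, so its reads are less certain.

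The regulators of the complex stood on both sides. Pdp2, a phosphatase that reactivates pyruvate dehydrogenase (chromosome 8, 107115368 to 107120749), had 28 reads in MHC403 against 131 in WT. It was 4.67-fold (3.09 to 7.29) lower, the lowest ratio among the 47, and only 0.210% of all measured entries had a lower one. The other phosphatase, Pdp1, had 226 and 205 reads, 1.10-fold (0.911 to 1.34) higher with library totals and 1.32-fold lower after median-of-ratios scaling. The reads of Pdp1 per read of Pdp2 were 8.07 in MHC403 and 1.56 in WT, a 5.14-fold (3.24 to 8.39) difference that does not depend on how the libraries are scaled. Pdk4, a kinase that inactivates the complex and is known to be induced by fasting and fatty acids (chromosome 6, 5433351 to 5446278), had 1529 reads in MHC403 against 940 in WT. It was 1.63-fold (1.5 to 1.77) higher, though only 0.14 above the median of all measured entries on the log2 scale. Pdk2, another isozyme of the kinase, had 1869 and 2640 reads and was 1.41-fold (1.33 to 1.5) lower. Reads of Pdk2 per read of Pdk4 were 1.22 in MHC403 and 2.81 in WT, 2.30-fold (2.08 to 2.54) lower in MHC403. Pdk1 had 270 and 240 reads, 1.13-fold (0.944 to 1.35) higher with library totals and 1.30-fold lower after median-of-ratios scaling. Pdk3 had 11 reads in MHC403 and 2 in WT, under the read minimum, with a ratio of 5.51 (1.20 to 51.2).

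**Figure D2:**
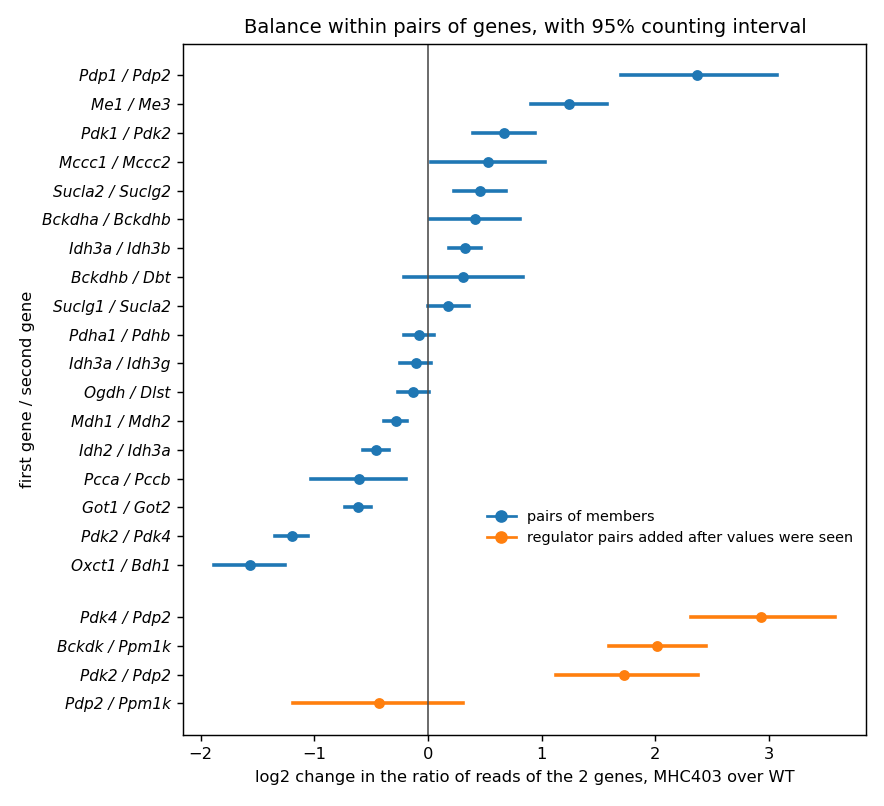
Log2 change, MHC403 over WT, in the ratio of reads of the first gene to the second for the 18 pairs with both genes measured (blue) and for 4 regulator pairs added after their values were seen (orange). Points are exact conditional estimates and bars 95% counting intervals, and 0 means an equal ratio in both libraries. Pdp1 over Pdp2 lies farthest right of the blue points, and Oxct1 over Bdh1 farthest left.

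Among the 13 genes listed with the TCA cycle, 12 had counting intervals wholly below a ratio of 1 (background 10.3%), and Aco1 lay wholly above it (background 63.2%). Their median log2 ratio was -0.41, and their summed reads were 0.463% of MHC403 reads and 0.649% of WT reads. Cs, citrate synthase (chromosome 10, 127774888 to 127799535), had 2926 reads in MHC403 and 3699 in WT, 1.26-fold (1.20 to 1.32) lower. Aco1 is the cytosolic aconitase, which without its iron-sulfur cluster becomes the iron regulatory protein IRP1, and is not itself an enzyme of the mitochondrial cycle. It had 164 reads in MHC403 and 82 in WT, 2.00-fold (1.53 to 2.65) higher, or 1.37-fold higher after median-of-ratios scaling.

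The isocitrate dehydrogenases differed among themselves. Idh2, the NADP-dependent mitochondrial enzyme (chromosome 7, 87239734 to 87260236), had 4730 MHC403 reads and 8198 WT reads, 1.73-fold (1.67 to 1.79) lower. The NAD-dependent enzyme is built from 3 kinds of subunit. Its catalytic subunit Idh3a had 1428 and 1798 reads, 1.26-fold (1.17 to 1.35) lower. Idh3g had 1900 and 2218 reads, 1.16-fold (1.09 to 1.24) lower, a ratio that did not differ from that of Idh3a beyond counting error (0.927, 0.844 to 1.02). Idh3b had 1379 and 2172 reads, 1.57-fold (1.47 to 1.68) lower, so that reads of Idh3a per read of Idh3b were 1.25-fold (1.13 to 1.38) higher in MHC403. Reads of Idh2 per read of Idh3a were 1.38-fold (1.27 to 1.49) lower in MHC403.

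The 2-oxoglutarate dehydrogenase complex, which makes succinyl-CoA, was lower in both its own subunits. Ogdh, the decarboxylase (chromosome 11, 6191600 to 6259096), had 5069 reads in MHC403 and 7307 in WT, 1.44-fold (1.39 to 1.49) lower. Dlst, the succinyltransferase, had 864 and 1140 reads, 1.32-fold (1.20 to 1.44) lower. The ratio of the 2 genes differed by a factor of 0.915 (0.831 to 1.01).

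Succinyl-CoA ligase pairs a shared alpha subunit, Suclg1, with a beta subunit that sets the nucleotide formed, GTP for Suclg2 and ATP for Sucla2. Suclg2 (chromosome 6, 95424128 to 95668831) had 425 reads in MHC403 against 880 in WT, 2.07-fold (1.84 to 2.32) lower. Sucla2 had 597 and 901 reads, 1.51-fold (1.36 to 1.67) lower, and Suclg1 had 1421 and 1893, 1.33-fold (1.24 to 1.42) lower. Reads of Sucla2 per read of Suclg2 were 1.37-fold (1.17 to 1.61) higher in MHC403. The windows of Suclg2 overlap those of an entry named Scs, itself described as the GTP-specific beta subunit, with 223 and 461 reads. Suclg2 also shares 22.9% of its 36-base words with genes elsewhere, or 24.4% in the first 200 bases, so its reads are less certain. Later in the cycle, fumarase, Fh1, had 897 and 1276 reads, 1.42-fold (1.30 to 1.55) lower, and the mitochondrial malate dehydrogenase Mdh2 had 3505 and 4008, 1.14-fold (1.09 to 1.19) lower.

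Within the malate-aspartate shuttle, which carries reducing equivalents from the cytosol into mitochondria, the cytosolic enzymes had lower ratios than their mitochondrial counterparts. Cytosolic Got1 (aspartate aminotransferase, chromosome 19, 43574243 to 43599095) had 1647 reads in MHC403 and 2404 in WT, 1.46-fold (1.37 to 1.55) lower. Mitochondrial Got2 had 3751 and 3574 reads, 1.05-fold (1 to 1.10) higher with library totals and 1.39-fold lower after median-of-ratios scaling. Reads of Got1 per read of Got2 were 1.53-fold (1.42 to 1.66) lower in MHC403. Got2 shares 49.5% of its 36-base words with gene copies elsewhere, though none in the first 200 bases of its transcripts. Cytosolic Mdh1 had 2615 and 3641 reads, 1.39-fold (1.32 to 1.46) lower, and reads of Mdh1 per read of Mdh2 were 1.22-fold (1.14 to 1.30) lower.

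Enzymes that refill or drain the cycle included genes with some of the higher ratios. Me1, the cytosolic malic enzyme, which makes NADPH and pyruvate from malate (chromosome 9, 86474970 to 86589947), had 561 reads in MHC403 against 282 in WT. It was 1.99-fold (1.73 to 2.31) higher, or 1.36-fold after median-of-ratios scaling, and shares 37.0% of its 36-base words with gene copies, none in the first 200 bases. The mitochondrial malic enzyme Me3 had 234 and 278 reads, 1.19-fold lower with an interval (0.993 to 1.42) that spanned 1. Reads of Me1 per read of Me3 were 2.40 in MHC403 and 1.01 in WT, 2.36-fold (1.87 to 2.98) higher. Me2, a further mitochondrial malic enzyme, had 44 reads against 13, under the minimum, 3.39-fold (1.79 to 6.87) higher. Pyruvate carboxylase, Pcx, which makes oxaloacetate, had 116 and 137 reads, 1.18-fold (0.913 to 1.52) lower.

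The 3 genes of ketone body oxidation did not have like ratios. Bdh1, the 3-hydroxybutyrate dehydrogenase of the first step (chromosome 16, 31422383 to 31458987), had 257 reads in MHC403 against 150 in WT, 1.72-fold (1.40 to 2.11) higher, or 1.17-fold after median-of-ratios scaling. Oxct1, the transferase that activates acetoacetate with succinyl-CoA (chromosome 15, 3976428 to 4105344), had 1662 and 2870 reads, 1.72-fold (1.62 to 1.83) lower. Reads of Oxct1 per read of Bdh1 were 6.47 in MHC403 and 19.1 in WT, 2.96-fold (2.39 to 3.68) lower. Acat1, the thiolase that splits acetoacetyl-CoA and also acts in isoleucine breakdown, had 581 against 1171 reads, 2.01-fold (1.82 to 2.23) lower.

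**Figure D3:**
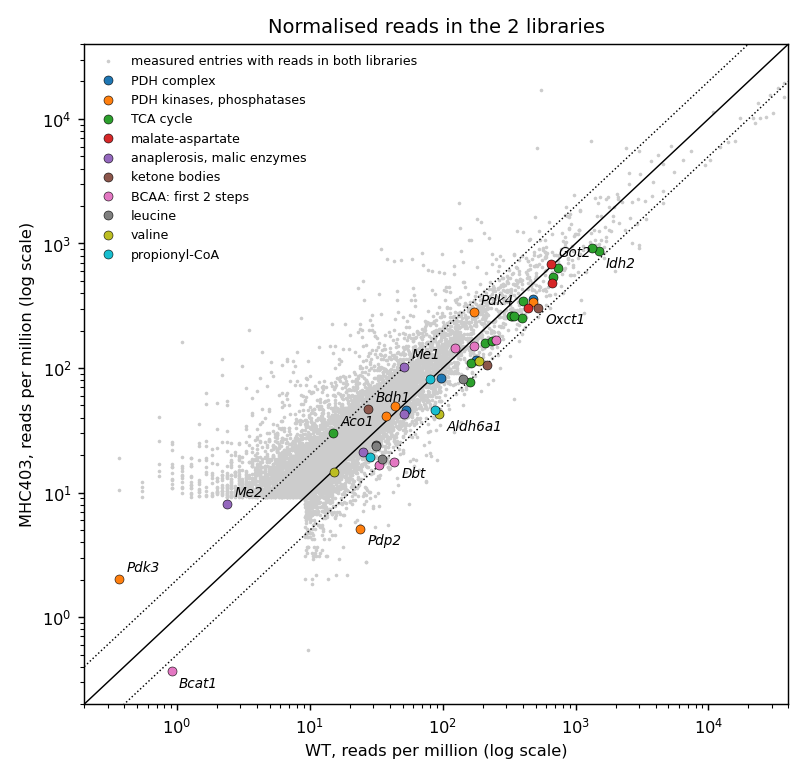
Normalised reads (RPM, that is reads scaled to the library total, log scales) of the 50 genes in WT (horizontal) and MHC403 (vertical), coloured by role, over the measured entries with reads in both libraries (grey). The solid line marks equal values and dotted lines 2-fold; Pdp2 lies farthest below the line among the measured genes, and Pdk3, Me2 and Bcat1 are under the read minimum.

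Branched-chain amino acid breakdown was lower in nearly every step measured. Of its 15 measured genes, 12 had counting intervals wholly below a ratio of 1 (background 10.3%), 1 (Bckdk) lay wholly above it (background 63.2%), and 2 (Pccb and Hibch) spanned it. Their median log2 ratio was -0.58, with an interval over genes of -0.92 to -0.18, and 15 of the 15 lay below the median of all measured entries. By library totals 2 were at least 2-fold lower (background 2.43%) and none higher (background 26.1%), and after median-of-ratios scaling 9 were lower (background 7.59%) and none higher (background 10.9%).

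Transamination, the opening step, is carried out by Bcat2 in mitochondria and Bcat1 in the cytosol. Bcat2 had 824 reads in MHC403 and 936 in WT, 1.13-fold (1.03 to 1.25) lower. Bcat1 had 2 and 5 reads, under the minimum. The branched-chain ketoacid dehydrogenase that follows commits the carbon skeletons to oxidation. Its decarboxylase subunit Bckdha (chromosome 7, 26414871 to 26443780) had 926 and 1385 reads, 1.49-fold (1.37 to 1.62) lower. Bckdhb, the partner subunit, had 91 and 181 reads, 1.98-fold (1.53 to 2.58) lower. It shares 24.2% of the 36-base words in the first 200 bases of its transcripts with 12 genes elsewhere, so its reads are less certain. The transacylase core Dbt (chromosome 3, 116215997 to 116252899) had 96 and 237, 2.46-fold (1.94 to 3.16) lower. Reads of Bckdha per read of Bckdhb were 1.33-fold (1.01 to 1.75) higher in MHC403, while those of Bckdhb per read of Dbt did not differ beyond counting error (1.24, 0.865 to 1.78).

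Bckdk, the kinase that inactivates this dehydrogenase, had 786 reads in MHC403 and 678 in WT. It was 1.16-fold (1.05 to 1.29) higher with library totals and 1.26-fold lower after median-of-ratios scaling. Its opposing phosphatase Ppm1k, which is not among the 50 and was singled out after its values were seen, had 71 reads against 247, 3.47-fold (2.66 to 4.59) lower. Reads of Bckdk per read of Ppm1k were 11.1 in MHC403 and 2.74 in WT, a 4.03-fold (3.02 to 5.43) difference. The matching comparison for pyruvate dehydrogenase gave 54.6 reads of Pdk4 per read of Pdp2 in MHC403 and 7.18 in WT, a 7.60-fold (4.98 to 12.0) difference. With Pdk2 in place of Pdk4 it was 3.31-fold (2.18 to 5.20). Both pairs were added after their values were seen, and both use Pdp2, the phosphatase gene with the lowest ratio among the 47 genes. The other phosphatase, Pdp1, had 226 reads in MHC403 and 205 in WT and did not share that low ratio. No interval was computed for kinase reads per read of Pdp1. Since Pdk2 was 1.41-fold lower and Pdp1 1.10-fold higher, Pdk2 per read of Pdp1 was lower in MHC403, opposite to Pdk2 per read of Pdp2. Pdk4, 1.63-fold higher, was higher per read of Pdp1 too, by less than per read of Pdp2. The ratios of the phosphatases Pdp2 and Ppm1k did not differ from each other beyond counting error (0.744, 0.440 to 1.23). Since windows differ in length, such reads per read describe a change in balance between the libraries and not which gene is more abundant.

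In the leucine branch, isovaleryl-CoA dehydrogenase, Ivd, had 444 reads in MHC403 and 781 in WT, 1.76-fold (1.56 to 1.98) lower. The beta subunit of methylcrotonyl-CoA carboxylase, Mccc2, had 101 and 191, 1.89-fold (1.47 to 2.43) lower, and the alpha subunit Mccc1 131 and 172, 1.31-fold (1.04 to 1.66) lower. The reads of Mccc1 also stand, but for 1 WT read, under a second entry named Mcca (131 and 171). Auh, the hydratase that follows and also binds RNA, had 130 and 171 reads, 1.31-fold (1.04 to 1.66) lower. In the valine branch Aldh6a1, methylmalonate semialdehyde dehydrogenase (chromosome 12, 85771668 to 85791900), had 232 and 517 reads, 2.22-fold (1.90 to 2.61) lower. Hibadh, the dehydrogenase before it, had 617 and 1030 reads, 1.67-fold (1.51 to 1.84) lower, and the hydrolase Hibch 80 and 83, with an interval that spanned a ratio of 1 (0.752 to 1.43, as fold lower). Among the enzymes that turn propionyl-CoA into succinyl-CoA, methylmalonyl-CoA mutase, Mut (chromosome 17, 41071634 to 41098938), had 251 and 477 reads, 1.90-fold (1.62 to 2.22) lower. The carboxylase subunits Pcca and Pccb had unequal ratios. Pcca had 105 and 156 reads, 1.48-fold (1.15 to 1.92) lower, and Pccb 447 and 436, 1.03-fold (0.899 to 1.18) higher with library totals and 1.42-fold lower after median-of-ratios scaling. Reads of Pcca per read of Pccb were 1.52-fold (1.14 to 2.04) lower in MHC403.

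Of the 21 pairs of isozymes or subunits compared, 18 had both genes measured, and in 13 of these the interval of the change in balance did not include 1. These intervals cover counting error only. For single entries they lay wholly below a ratio of 1 in 10.3% of all measured entries and wholly above it in 63.2%. No share was computed over other gene pairs, so 13 of 18 is not shown to be particular to these pairs. The 5 pairs whose interval included 1 were each made of subunits of 1 complex, Pdha1 and Pdhb, Suclg1 and Sucla2, Idh3a and Idh3g, Ogdh and Dlst, and Bckdhb and Dbt. Other pairs of subunits of 1 complex had intervals that did not include 1, namely Idh3a and Idh3b, Bckdha and Bckdhb, Pcca and Pccb, and Mccc1 and Mccc2. An interval that includes 1 does not show that the 2 genes had equal ratios.

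Other genes of the same pathways had a median nearer to a ratio of 1. Of 38 measured, 2 were at least 2-fold lower (background 2.43%), Ppm1k and Gpt2 (mitochondrial alanine aminotransferase, 30 and 92 reads, 3.06-fold, 2.01 to 4.79). The dicarboxylate carrier Slc25a10 was the 1 gene at least 2-fold higher (background 26.1%). The median log2 ratio of the 38 was -0.20 (-0.50 to 0.28), and 32 lay below the median of all measured entries. Some of the 38 are also counted in the lists of fatty acid oxidation, oxidative phosphorylation or glycolysis below. Without those the median was -0.07 over 30 measured genes. The proline and arginine pathway enzyme Aldh4a1 was 1.96-fold (1.62 to 2.40) lower. Lactate dehydrogenase A, Ldha, which faces the same pyruvate pool, had 2546 reads against 1512, 1.69-fold (1.58 to 1.80) higher. The other main subunit, Ldhb, went the opposite way, with 2111 reads against 3492, 1.65-fold (1.56 to 1.74) lower. The subunits of the mitochondrial pyruvate carrier, listed by their older names Brp44l and Brp44, had 1398 against 1105 reads and 1177 against 1511, log2 ratios of 0.34 and -0.36.

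The medians of related pathways bracketed that of the 47 genes (-0.41). Fatty acid oxidation had a median log2 ratio of -0.64 (-0.83 to -0.33) over 22 measured genes, with 4 at least 2-fold lower and none higher. Nuclear genes of oxidative phosphorylation had a median of -0.36 (-0.43 to -0.29) over 58, with 3 lower and none higher. Glycolysis genes had a median of 0.76 (-0.44 to 1) over 19, with 1 lower and 5 higher. Of all measured entries 2.43% were at least 2-fold lower and 26.1% higher, with a median of 0.57. The share of glycolysis genes called higher was thus near that of all entries, and their median was 0.19 above the median of all entries. The interval over the 47 genes overlaps those of fatty acid oxidation and oxidative phosphorylation, and no difference between these sets was tested.

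**Figure D4:**
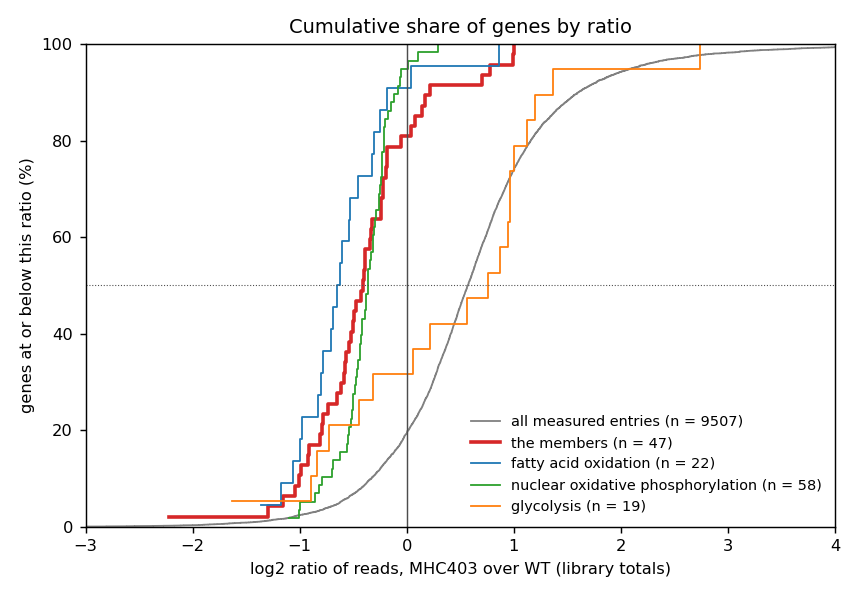
Cumulative share of genes (vertical axis, percent) at or below each log2 ratio of reads, MHC403 over WT (horizontal axis), for the 47 measured genes, 3 related pathways and all 9507 measured entries. The curve of the 47 lies between fatty acid oxidation and oxidative phosphorylation at the 50% line, left of all measured entries.

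In bulk tissue, fewer cells of a type and less RNA per cell cannot be told apart. Cardiomyocyte markers identified the tissue as heart and took 3.71% of MHC403 reads and 5.26% of WT reads, with 8 of 8 detected and a median log2 ratio of -0.20. Most of that difference in summed reads was in Myh6 (55171 against 132965 reads). Myh6 itself encodes a cardiac myosin heavy chain, the kind of gene altered in MHC403 mice. The other 7 markers took 2.70% and 2.83%. The near-equal sum of these 7 holds markers on both sides. Nkx2-5 was 2.19-fold and Actc1 1.85-fold higher, while Pln was 1.95-fold and Tnni3 1.72-fold lower. Of all 8, 4 had ratios below 1 and 4 above it. At 2-fold 1 was lower (background 2.43%) and 1 higher (background 26.1%). Fibroblast markers were detected 7 of 7 and took 0.229% against 0.0441%, with 4 of 7 at least 2-fold higher (background 26.1%). Most of that sum was in Col1a1 (4914 against 188 reads) and Col1a2 (4034 against 264), and the other 5 markers took 0.0658% and 0.0358%. Macrophage markers were detected 7 of 7 and took 0.0318% against 0.0112%, with 6 of 7 at least 2-fold higher (background 26.1%). The defining adipocyte genes Adipoq, Lep and Ucp1 and the hepatocyte gene Alb had 0 reads in both libraries. The part of cell composition in the ratios of the 47 genes was not tested.

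The authors' deposited table also gives a start-site score per gene, a whole number meant to register changes in start use, for which no source used here gives a formula. It was above 0 in 22 of the 47 measured genes (46.8%), against 36.2% of all measured entries. In the authors' deposited table Aldh6a1 had the highest score of the 50, 71, which exceeded that of 99.6% of measured entries, followed by Dbt with 36, Pdk1 with 26 and Ogdh with 21. Aldh6a1, Dbt and Pdk1 are listed with 1 annotated start each and Ogdh with 3, and the table gives no reads per start.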

How the data were processed

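Heart RNA was compared in 2 libraries, WT and MHC403, grouped by the genotype label. Per the labels' protocols, RNA was Trizol-extracted, polyadenylated, left intact, size-selected and linearly amplified. Replicate animals were pooled per the series' design text. The submitters' processing notes name TopHat 1.0.14 and mm9. No source used here gives the counting program, its use of strand or its treatment of multiply matching reads. Deposited by the authors were whole-number read counts per gene, without normalization. The deposited normalized reads are RPM, which recomputed from the counts to within 4.94e-06. The authors' deposited fold (a ratio) is the quotient of these, and their deposited start-site score has no stated formula. The deposited p-values were not used.

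Computed here were log2 ratios of reads scaled to library totals, Clopper-Pearson intervals, conditional odds ratios for pairs, and list medians (Python 3.11.15, scipy 1.17.1). At 50 reads in each library the interval of a ratio of 1 is 0.662 to 1.51. With 1 library per genotype edgeR 4.0.16 served only for TMM factors. The calculation of ratios and intervals was checked on simulated counts with set ratios and Poisson counting error only. That check holds no animal, pooling or amplification variation. Reads carry no molecular identifiers, so intervals omit amplification, pooling and animal variation. Table starts were written 1-based. RefSeq (GRCm38.p6) supplied promoters, and GENCODE M21 transcripts supplied shared 36-base words. Windows of 2 members overlap another entry.

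The members, lists, pairs and thresholds were chosen with earlier results of these data known. Values are given for all 50 members; of other lists, up to 4 genes with the counting bound farthest from 1 were eligible, and Slc25a10, Ldhb, Brp44, Brp44l, Esrra and the single marker genes were named after their values were seen. Marker lists for endothelium, smooth muscle, erythroid cells and skeletal muscle were also summed and are given in the closing section. For 1 gene of the other lists, which is counted in its list, values are not reported here.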

Additional observations from a re-analysis of the deposited data

How the results depend on the processing

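The count of 5 genes at least 2-fold lower, the count of 1 higher and the median log2 ratio of -0.41 depended on scaling. Median-of-ratios and TMM scaling each gave 22 lower and 0 higher, with a median of -0.96. Totals without mitochondrially encoded entries gave 12 lower (background 4.51%), 0 higher (background 15.2%) and a median of -0.74. TMM backgrounds were 7.55% and 10.9%. Under each of these 3 scalings Pdk1, Pdp1, Got2, Bckdk and Pccb passed from above to below a ratio of 1, and Pdk4, Aco1, Me1 and Bdh1 were the 4 that stayed above it. At 1.5-fold 15 were lower and 4 higher. The count of higher genes was 2 with a minimum of 20 reads, 3 with no minimum and 0 with 200, because Me2 (44 reads) and Pdk3 (11 reads) enter at the lower minimums and Aco1 (164 reads) drops out at 200. With at least 200 reads 2.5% of 3998 entries were 2-fold lower and 24.7% higher, and the median of 38 members was -0.42 against 0.56 over those entries. The lower count stayed between 4 and 6 under the read minimums and without the 2 members whose windows overlap another entry. It also did so when the counting interval had to exclude 1. A setting added after seeing the data left out members for words shared with genes elsewhere, and gave 4 lower. Its cutoff is not stated here. Of the 5 lower genes, Pdp2 (0.195% of words), Dbt (2.16%) and Suclg2 (22.9%) all share some. Leaving out every member with any shared word would thus give a smaller count. No paired analysis was possible because each genotype has 1 library and the labels give no replicate numbers. With 28 and 131 reads for Pdp2 and 91 and 181 for Bckdhb, depth limits these ratios to the intervals given, and pooling leaves animal variation unmeasured.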

Other observations

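Of 14 measured transcriptional regulators of oxidative metabolism, 1 was at least 2-fold lower in the MHC403 library (2.43% of all measured entries) and none was higher (26.1%), with a median log2 ratio of -0.16 (-0.73 to 0.73). Ppara, the lipid-sensing receptor, had 99 reads against 248 in WT, 2.5-fold (1.97 to 3.19) lower, and the coactivator Ppargc1a 143 against 237, 1.65-fold (1.34 to 2.05) lower. Ppard had 243 against 130 reads, 1.87-fold (1.51 to 2.34) higher, and the hypoxia factor Hif1a 232 against 140, 1.66-fold (1.34 to 2.06) higher. The estrogen-related receptor Esrra had 525 and 511 reads, a log2 ratio of 0.04 with library totals.

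Endothelial markers took 0.0435% of MHC403 reads and 0.0356% of WT reads, smooth muscle markers 0.0318% and 0.0227%, adipocyte markers 0.0546% and 0.0438%, erythroid markers 0.255% and 0.152%, and skeletal muscle markers 0.134% and 0.248%. Nearly all adipocyte marker reads were of Fabp4 (2958 and 2387, against 26 and 16 for the other 6 genes), and nearly all skeletal muscle marker reads were of Ckm, which the heart also expresses (7066 and 12865, against 258 and 701 for the other 5). Of these lists, 0 of 6 measured endothelial, 2 of 4 smooth muscle, 1 of 3 erythroid and 0 of 3 skeletal muscle genes were at least 2-fold higher. The background was 26.1%. Of the 3 skeletal muscle genes 2 were at least 2-fold lower (background 2.43%). These lists are short, and none was tested against those shares.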
